A study of Mus musculus with 32 samples.

Results

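The inhibitory and costimulatory receptors of T cells, and the factors and the ligand that go with them, were read out in whole mouse bladders of 3 ages and after repeated gavage. The set holds 10 genes of the 32285 in the count table, namely Ctla4, Pdcd1, Lag3, Tigit, Havcr2, Icos, Cd28, Tox, Foxp3 and Cd274. They were chosen by name, as checkpoint and exhaustion genes, with earlier results of these data known. Each matched a single row of the table through its Ensembl identifier. Every bladder came from a female C57BL/6 mouse. Young bladders were taken at 2 months (n = 6), middle-aged bladders at 10 months (n = 5) and untreated old bladders at 26 months (n = 6). The other 26-month mice were gavaged on 3 consecutive days each month from 21 months of age, with water (n = 5), with the drug vehicle (Phosal 50 PG, polyethylene glycol and ethanol) (n = 4), or with D + Q in that vehicle (n = 6), which is dasatinib at 5 mg/kg/day together with quercetin at 50 mg/kg/day. RNA was taken from the whole organ, with no sort or gate, and each library came from 1 bladder.

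T cells answer an antigen through the T-cell receptor, of which Cd3e encodes a signalling chain, and need a second signal from costimulatory receptors such as CD28 and ICOS. Checkpoint receptors (CTLA-4, PD-1, LAG-3, TIGIT and TIM-3, encoded by Ctla4, Pdcd1, Lag3, Tigit and Havcr2) dampen that response when they meet their ligands, and under lasting stimulation T cells can carry several of them at once, a state called exhaustion in which the nuclear factor TOX takes part. FOXP3 defines regulatory T cells, which also carry CTLA-4, ICOS and TIGIT, and PD-L1, encoded by Cd274, is a ligand of PD-1 that many cell types display. Because these are bulk samples, more cells of a type and more RNA per cell cannot be told apart.

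Ctla4, Icos and Cd28 are neighbours on chromosome 1 of mm10, where Cd28 (ENSMUSG00000026012) spans 60716800 to 60773359, Ctla4 (ENSMUSG00000026011) 60887000 to 60915832 and Icos (ENSMUSG00000026009) 60977927 to 61000320, all on the plus strand. Pdcd1 (ENSMUSG00000026285) lies on the minus strand of the same chromosome, at 94038305 to 94052553. Tigit (ENSMUSG00000071552) is on chromosome 16, minus strand, 43648867 to 43664146. Lag3 (ENSMUSG00000030124) is on chromosome 6, minus strand, 124904361 to 124911705, and Havcr2 (ENSMUSG00000020399) on chromosome 11, plus strand, 46454935 to 46481255. Tox (ENSMUSG00000041272) is on chromosome 4, minus strand, 6686353 to 6991557. Foxp3 (ENSMUSG00000039521) is on chromosome X, plus strand, 7573644 to 7595245, and Cd274 (ENSMUSG00000016496) on chromosome 19, plus strand, 29367455 to 29388095. Exon bases of Tox are shared with Gm11802, those of Foxp3 with Ppp1r3f, Flicr and Ccdc22, and those of Cd274 with AC119228.1. Those of Cd3e, the gene the members are set against below, are shared with Gm48719. The strand setting of the authors' counting is not given in the sources used here, so reads in the shared bases cannot be assigned with certainty.

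The 3 members with the largest rises with age are Tigit, Ctla4 and Pdcd1, and the 250 bases before the transcription start that RefSeq gives each of them (build GRCm38.p6) are printed for that reason, 5′ to 3′ on the strand of the gene. Capitals mark matches to the NFAT core (GGAAA, or TTTCC on the other strand), the shortest binding word of the factors that calcineurin activates downstream of the T-cell receptor. The Ctla4 window is chr1:60908775-60909024 on the plus strand, within an intron of a longer Ctla4 transcript, the Pdcd1 window is chr1:94052554-94052803 on the minus strand, and the Tigit window is chr16:43664185-43664434 on the minus strand.
Ctla4: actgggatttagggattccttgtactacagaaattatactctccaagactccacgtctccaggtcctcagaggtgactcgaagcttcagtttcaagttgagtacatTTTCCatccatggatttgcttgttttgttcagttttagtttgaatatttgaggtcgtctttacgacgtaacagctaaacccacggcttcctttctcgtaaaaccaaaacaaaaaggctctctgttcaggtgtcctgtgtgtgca
Pdcd1: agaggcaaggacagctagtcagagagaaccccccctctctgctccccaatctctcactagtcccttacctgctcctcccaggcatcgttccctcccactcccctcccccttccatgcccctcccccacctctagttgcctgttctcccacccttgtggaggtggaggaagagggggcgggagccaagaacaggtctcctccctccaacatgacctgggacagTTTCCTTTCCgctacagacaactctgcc
Tigit: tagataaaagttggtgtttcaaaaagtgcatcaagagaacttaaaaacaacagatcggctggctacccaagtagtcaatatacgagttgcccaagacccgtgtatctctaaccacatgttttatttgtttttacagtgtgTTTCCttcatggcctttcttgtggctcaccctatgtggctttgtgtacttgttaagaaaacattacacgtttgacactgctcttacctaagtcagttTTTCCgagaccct
The Ctla4 window holds 1 match and the other two hold 2 each, while TGANTCA, the AP-1 word, was searched on both strands and is in none of the 3. Among 32851 RefSeq start windows of the same length, 55.6% hold at least 1 NFAT core and 6.75% hold an AP-1 word, so matches of this kind are a description of the letters and carry no evidence of binding.

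The libraries held 15088372 to 52650259 counts each, and 3 counts, taken here as the floor of detection, stood at 0.0572 to 0.205 CPM (CPM, counts scaled to a common library size with TMM factors). No library of a group repeated the counts of another. The samples are labelled bladder, and genes of the urothelium (6 genes, 3512 to 4714 summed CPM) and of smooth muscle (5 genes, 21268 to 30933 summed CPM) were high in every one of the 32 bladders. Neither the labels nor the methods give a sequencing batch, so no value within batches could be had.

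All 10 genes rose between 10 and 26 months of age, the comparison that isolates the change late in life. Their log2 fold changes ran from 1.08 to 4.99, with a median of 1.93 against -0.0047 over all 17156 genes tested. Each passed edgeR's quasi-likelihood test at an adjusted p under 0.05, where 13.0% of all genes tested passed in that direction. For none of them did the groups overlap, against 8.49% of all genes with every untreated old bladder above every middle-aged bladder. All 10 still passed when any single bladder was left out. Because the set was chosen with earlier results of these data known, its count beside the share of all genes is a description.

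Ctla4, whose product competes with CD28 for the B7 ligands, was close to absent before old age. The middle-aged bladders held 7, 3, 3, 1 and 2 counts, or 0.228, 0.0951, 0.0821, 0.0277 and 0.0543 CPM, and 4 of those 5 were at or under the floor. Untreated old bladders held 1.08 CPM at the lowest, 2.75 at the median and 5.34 at the highest. The lowest old bladder was thus above every middle-aged bladder. The fitted log2 fold change was 4.91 (SE 0.482, edgeR quasi-likelihood adjusted p = 2.23e-05), with a 95% interval of 3.96 to 5.85, from 16 counts in all middle-aged bladders together.

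Tigit encodes an inhibitory receptor that binds the poliovirus receptor family and is carried by T cells and NK cells. It stood at 0.196, 0.0951, 0.0547, 0.111 and 0.0814 CPM in the middle-aged bladders, of which 3 were at or under the floor, and at 1.19 (lowest), 3.59 (median) and 5.83 CPM (highest) in untreated old ones. Its log2 fold change of 4.99 (SE 0.475, edgeR quasi-likelihood adjusted p = 1.78e-05) was the largest of the 10, with an approximate 95% interval of 4.06 to 5.93, from 18 counts in all middle-aged bladders together. The intervals of Tigit and Ctla4 overlap almost wholly, so the order between them is not settled by these bladders.

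Pdcd1 encodes PD-1, the receptor for PD-L1 and PD-L2. The middle-aged bladders held 0.522, 0.254, 0.137, 0.194 and 0.244 CPM and the untreated old bladders 1.36 (lowest), 3.28 (median) and 4.97 CPM (highest). The log2 fold change was 3.55 (SE 0.439, edgeR quasi-likelihood adjusted p = 0.000117). The other inhibitory receptors were already well above the floor in middle age and rose less. Lag3, an inhibitory receptor that binds MHC class II, moved from 3.03, 2.12, 2.08, 2.77 and 2.09 CPM in the middle-aged bladders to between 5.10 and 12.3 CPM (median 8.10) in the old bladders, a log2 fold change of 1.74 (SE 0.228, edgeR quasi-likelihood adjusted p = 0.000171). Havcr2, which encodes TIM-3 and is also transcribed by macrophages and dendritic cells, moved from 1.76, 1.81, 2.03, 2.44 and 1.98 CPM to between 2.95 and 5.62 CPM (median 4.12), a log2 fold change of 1.08 (SE 0.159, edgeR quasi-likelihood adjusted p = 0.000412). The macrophage list stood at 435 to 507 summed CPM in the middle-aged and at a median of 656 in the untreated old bladders, with none of its 7 genes at 0, and its part in the Havcr2 result was not tested.

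Both costimulatory receptors rose as well. Icos, the inducible costimulator of activated and follicular helper T cells, was at 1.53, 1.17, 1.37, 0.887 and 1.33 CPM in the middle-aged bladders and at 3.57 to 8.41 CPM (median 5.10) in the untreated old bladders, a log2 fold change of 2.16 (SE 0.258, edgeR quasi-likelihood adjusted p = 8.94e-05). Cd28, carried by resting T cells too, was at 3.00, 3.26, 3.04, 3.02 and 2.42 CPM and then at 5.41 to 10.7 CPM (median 8.22), a log2 fold change of 1.45 (SE 0.15, edgeR quasi-likelihood adjusted p = 3.11e-05).

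Of the nuclear factors, Foxp3 rose by a log2 fold change of 2.12 (SE 0.34, edgeR quasi-likelihood adjusted p = 0.000724), from 0.359, 0.317, 0.328, 0.277 and 0.380 CPM in the middle-aged bladders to 0.785 (lowest), 1.31 (median) and 2.78 CPM (highest). Tox rose by 1.51 (SE 0.181, edgeR quasi-likelihood adjusted p = 9.08e-05), from 1.27, 0.982, 1.45, 1.47 and 1.41 CPM to 2.55, 4.06 and 4.64 CPM at the same 3 points. The ligand gene Cd274 had the tightest spread of the set. It was at 5.90, 6.50, 6.27, 6.32 and 5.83 CPM in the middle-aged bladders and at 11.0 to 14.2 CPM (median 13.5) in the untreated old bladders, a log2 fold change of 1.08 (SE 0.0748, edgeR quasi-likelihood adjusted p = 3.29e-06).

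**Figure D1:**
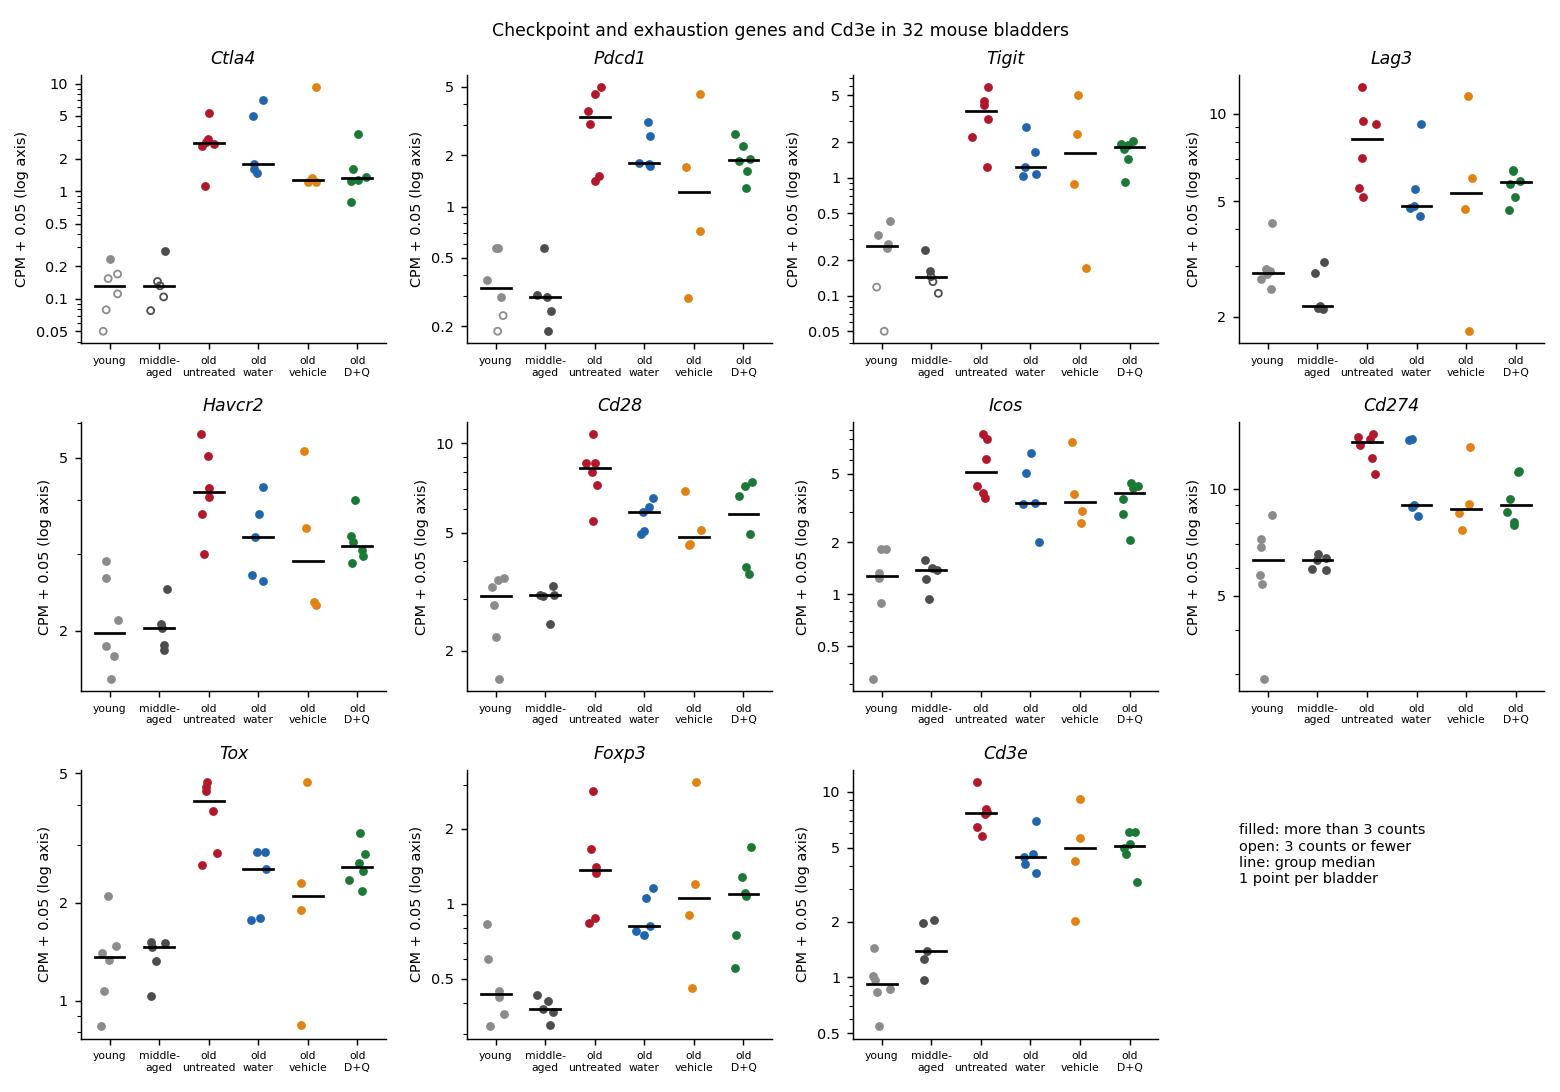
CPM plus 0.05 of each gene and of Cd3e on a log axis, with 1 point per bladder, in the 6 groups. Lines mark the group medians, and open points are bladders with at most 3 counts, and Ctla4 and Tigit sit at or near the floor in young and middle-aged bladders and between 1.08 and 5.83 CPM in every untreated old bladder.

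Between young and middle-aged bladders no change of this set was called. Of the 10 genes, 7 had enough counts to be tested there, and 0 of the 7 passed edgeR's quasi-likelihood test, nor did any at an unadjusted p under 0.05 (27.2% of all genes), while 10.8% of all 16754 genes tested passed in either direction at the adjusted threshold. The log2 fold changes of the 7 ran from -0.40 for Foxp3 (SE 0.28, edgeR quasi-likelihood adjusted p = 0.382) to 0.09, with a median of 0.02. Lag3 was at -0.26 (SE 0.165, edgeR quasi-likelihood adjusted p = 0.338). Ctla4, Pdcd1 and Tigit were left out by the filter on low counts. Ctla4 had 5, 2, 0, 2, 1 and 3 counts in the 6 young bladders, and Tigit had 6, 9, 1, 0, 7 and 11. A difference between 2 and 10 months was thus not tested for them in this fit, and would rest on few counts.

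Set against young bladders, the untreated old bladders were again higher for all 10 genes by edgeR's quasi-likelihood test, against 12.6% of 16873 genes tested. This comparison uses the same 6 old bladders as the comparison with middle age, so it is no second piece of evidence about them. The log2 fold changes were 5.04 for Ctla4 (SE 0.476, edgeR quasi-likelihood adjusted p = 1.01e-05), 3.98 for Tigit and 3.20 for Pdcd1. Beside the rise from middle age, Tigit's was smaller from youth, where the young bladders had a median of 0.214 CPM and the middle-aged bladders of 0.0951 CPM. Icos was at 2.18, Foxp3 at 1.70, Tox at 1.53, Cd28 at 1.53, Lag3 at 1.47, Cd274 at 1.10 and Havcr2 at 1.02 (edgeR quasi-likelihood adjusted p = 0.00136). When at least 10 counts were asked of every bladder, 5 of the 10 were left to test and all 5 passed.

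Per length, in TPM (counts divided by each gene's exon length and scaled to a common sum), the genes changed places. In middle-aged bladders Cd274 led at 6.03 ± 0.333 TPM (SD, n = 5), ahead of Lag3 at 4.06 ± 0.700, Havcr2 at 2.60 ± 0.321, Cd28 at 1.71 ± 0.191 and Icos at 1.30 ± 0.251 TPM. Tox (0.612 ± 0.0873), Pdcd1 (0.495 ± 0.268), Tigit (0.413 ± 0.201), Foxp3 (0.257 ± 0.0319) and Ctla4 (0.148 ± 0.116 TPM) stood under 1 TPM, and the spreads of Tox, Pdcd1 and Tigit ran into each other. In untreated old bladders Lag3 (13.1 ± 4.52 TPM, SD, n = 6), Tigit (12.9 ± 6.30) and Cd274 (12.4 ± 1.33) were the highest and did not differ beyond their spread. By the means alone Tigit stood eighth in middle-aged and second in untreated old bladders, and these spreads leave neither place settled. Icos (5.64 ± 2.18), Pdcd1 (5.59 ± 2.77), Havcr2 (5.36 ± 1.30), Cd28 (4.50 ± 0.971) and Ctla4 (4.30 ± 2.05 TPM) made up a middle group whose spreads overlapped. Tox at 1.69 ± 0.395 and Foxp3 at 1.06 ± 0.488 TPM were the lowest.

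Cd3e (ENSMUSG00000032093, chromosome 9, minus strand, 44998740 to 45009627), the T-cell receptor chain used as the yardstick, itself rose from 1.99, 1.90, 1.20, 0.915 and 1.33 CPM in the middle-aged bladders to 5.75 (lowest), 7.66 (median) and 11.3 CPM (highest) in the untreated old bladders, a log2 fold change of 2.42 (SE 0.219, edgeR quasi-likelihood adjusted p = 1.26e-05). All 18 genes of the T-cell receptor and coreceptor list rose with it, with a median log2 fold change of 2.46. Expressed relative to Cd3e, as log2((CPM + 0.1)/(Cd3e CPM + 0.1)), 97.8% of all genes were lower in untreated old bladders and 0.256% were higher, so the sign of a single gene has to be read against that shift. Of the 10 genes, 2 were higher relative to Cd3e and 5 were lower by the exact permutation test, two-sided and adjusted over all 17155 genes. With so large a share of all genes called, the adjustment left the p-values almost as they were. How many genes pass in this test depends largely on how far the shared Cd3e values moved.

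Tigit gained 1.62 on the log2 scale relative to Cd3e (exact permutation p = 0.00649, adjusted p = 0.00671) and Ctla4 gained 1.53 (exact permutation p = 0.00433, adjusted p = 0.0045), where the smallest p that the 462 permutations can give is 0.00216. Both sizes depend on the pseudocount, and 3 of the 5 middle-aged bladders for Tigit and 4 for Ctla4 were at or under the floor. With 0.5 in place of 0.1 they were 0.51 for Tigit (exact permutation adjusted p = 0.0725) and 0.35 for Ctla4 (adjusted p = 0.367), and neither passed. Counts summed over each group need no pseudocount. Per length, and as a ratio to Cd3e, the summed counts of Tigit went from 0.324 in middle-aged to 1.99 in untreated old bladders, and those of Ctla4 from 0.113 to 0.648. The corresponding ratios in young bladders were 1.11 for Tigit and 0.167 for Ctla4, from 34 and 13 counts. Against youth, then, Tigit's gain relative to Cd3e was 0.61 (exact permutation adjusted p = 0.183), while that of Ctla4 was 0.98 (adjusted p = 0.0306), and with a pseudocount of 0.5 they were at -0.15 and -0.11. Tigit passed against youth with Cd3d, Cd3g and Cd247 in place of Cd3e (1.21, exact permutation adjusted p = 0.00675) and without untreated old replicate 4 (0.82). Ctla4 did not pass against youth without untreated old replicate 1 or 5 or young replicate 2, 3 or 6 (exact permutation adjusted p = 0.0525 to 0.0655). Of the 10 genes, 1 was higher (Ctla4) and 6 were lower relative to Cd3e in that comparison by the exact permutation test, where 0.397% of all genes were higher and 98.7% lower.

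Pdcd1, Icos and Foxp3 stood between these groups, at 0.70 (exact permutation adjusted p = 0.0683), -0.34 (adjusted p = 0.388) and -0.64 (adjusted p = 0.0945) relative to it in untreated old against middle-aged bladders, none of which passed. With the mean of Cd3d, Cd3g and Cd247 in place of Cd3e, Pdcd1 was at 0.93 and passed (exact permutation adjusted p = 0.0201), while with a pseudocount of 0.5 it was at 0.061 (adjusted p = 0.826). It also passed without untreated old replicate 4 (0.85) or 5 (0.89). Foxp3 passed with a pseudocount of 0.5 (-0.93, exact permutation adjusted p = 0.0133) and without untreated old replicate 6 (-0.84). The 5 genes that were lower relative to Cd3e were Havcr2 (-1.33), Cd274 (-1.29), Cd28 (-0.96), Tox (-0.93) and Lag3 (-0.70, exact permutation adjusted p = 0.0134), which places them on the side of nearly all genes. Lag3 did not pass without middle-aged replicate 4 (-0.51, exact permutation adjusted p = 0.0536). These were also the 5 with the smallest rises on the CPM scale. Between young and middle-aged bladders 0 of the 7 genes tested relative to Cd3e passed, and neither did any other gene (0.0% of 16753, exact permutation test). Their values were nonetheless negative, from -0.94 for Foxp3 (exact permutation adjusted p = 0.0912) to -0.42 for Icos. Cd3e itself was at 0.72 in middle-aged against young bladders (SE 0.269, edgeR quasi-likelihood adjusted p = 0.101).

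**Figure D2:**
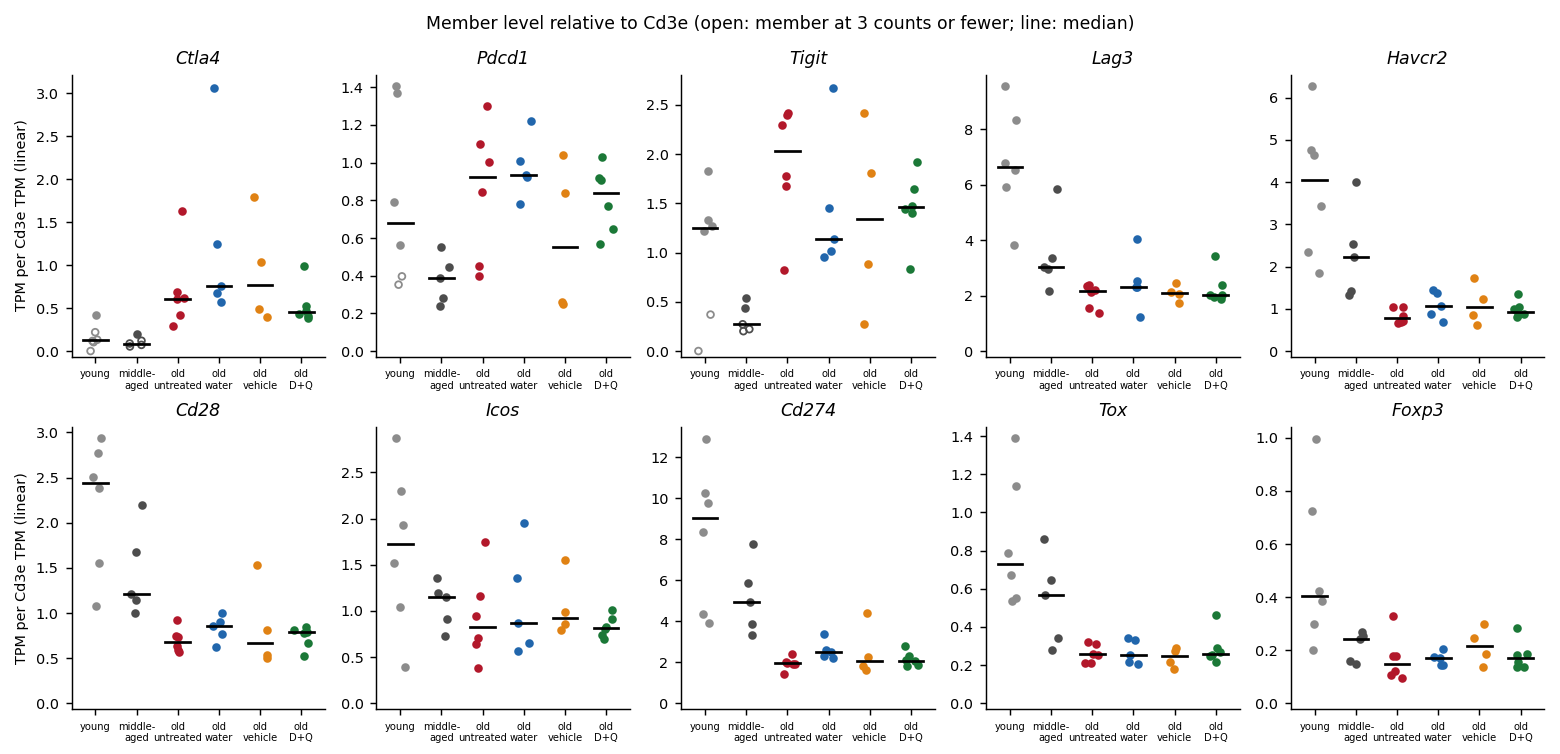
TPM of each gene divided by the Cd3e TPM of the same bladder, on linear axes, with 1 point per bladder in the 6 groups, group medians as lines, and open points for bladders with at most 3 counts of the gene. Untreated old bladders ran from 0.825 to 2.42 for Tigit and from 0.294 to 1.63 for Ctla4. Middle-aged bladders ran from 0.202 to 0.538 and from 0.0531 to 0.201, values that rest on 18 and 16 counts in all. Neither gain passed the exact permutation test with a pseudocount of 0.5.

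The gavage groups address whether the old pattern changes with D + Q, with water and vehicle as the procedure's controls. After D + Q, all 10 genes had negative values against untreated old bladders, a sign that 49.3% of all genes shared, but none passed the adjusted threshold, nor did any other gene (0.0% of 17037 genes tested by edgeR's quasi-likelihood test). Their log2 fold changes ran from -1.11 to -0.41 with a median of -0.54, against 0.0020 over all genes. At an unadjusted p under 0.05, 9 of the 10 were lower, beside 6.67% of all genes, and the exception was Foxp3. Cd3e was at -0.65. The 18 genes of the T-cell receptor and coreceptor list were all negative too, with a median of -0.66, and 15 had an unadjusted p under 0.05. DESeq2 called 189 genes in this comparison, among them Tigit (adjusted p = 0.0329) and Cd274 (adjusted p = 0.00378).

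Tigit had the lowest of these values, -1.11 (SE 0.32, edgeR quasi-likelihood adjusted p = 0.276), with D + Q-treated bladders at 0.863 (lowest), 1.75 (median) and 1.99 CPM (highest). Ctla4 was at -0.90 (SE 0.372, edgeR quasi-likelihood adjusted p = 0.356), with 0.741, 1.27 and 3.38 CPM at the same 3 points. Pdcd1 was at -0.74 (SE 0.311, adjusted p = 0.36, edgeR quasi-likelihood), with 1.23, 1.82 and 2.61 CPM. In each of the 3 genes the range of the treated bladders overlapped that of the untreated old bladders. The highest values in young and middle-aged bladders were 0.383 CPM for Tigit, 0.228 for Ctla4 and 0.523 for Pdcd1. A difference of D + Q-treated bladders from those younger groups was not tested. Icos was at -0.69 (SE 0.249), Tox at -0.55 (SE 0.161), Cd28 at -0.54 (SE 0.202), Lag3 at -0.51 (SE 0.192), Foxp3 at -0.51 (SE 0.334), Cd274 at -0.48 (SE 0.102, edgeR quasi-likelihood adjusted p = 0.233) and Havcr2 at -0.41 (SE 0.144). Cd274 had D + Q-treated bladders at 7.87 to 11.2 CPM beside untreated old bladders at 11.0 to 14.2 CPM, ranges that overlapped only at their ends.

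Water and vehicle without drug were set against the same 6 untreated old bladders, so their values stand beside those of D + Q and are not independent of them. After water, 0 of the 10 genes passed edgeR's quasi-likelihood test, where 1.0% of all 17250 genes did, and 9 of the 10 were negative (49.8% of all genes) with a median of -0.51 over the set. Tigit was at -1.25 (SE 0.386, edgeR quasi-likelihood adjusted p = 0.148), with 2.64, 1.59, 1.18, 1.03 and 0.983 CPM in the water-treated bladders. Tox was at -0.71, Cd28 at -0.50 and Cd274 at -0.28. At an unadjusted p under 0.05 there were 4 of the 10, beside 16.0% of all genes. DESeq2 called 3 of the 10, namely Tigit, Cd28 and Tox, among 693 of 25683 genes.

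After vehicle, again 0 of the 10 passed, and 0.0% of all 17440 genes did by edgeR's quasi-likelihood test (8.39% at an unadjusted p under 0.05), with 9 of the 10 negative (49.4% of all genes), 2 at an unadjusted p under 0.05 and 0 called by DESeq2. Cd28 was at -0.62 (edgeR quasi-likelihood adjusted p = 0.455), Cd274 at -0.45, Tigit at -0.76 and Tox at -0.65. Without vehicle replicate 3 Tigit was at -1.78 and Tox at -1.21, and without vehicle replicate 1 they were at -0.36 and -0.35. The vehicle-treated bladders lay far apart for several genes, with Tigit at 0.120, 0.831, 4.94 and 2.28 CPM and Pdcd1 at 0.241, 1.66, 4.48 and 0.666 CPM. Its replicate 1 was the lowest and its replicate 3 the highest for both genes. Cd3e was likewise lowest in replicate 1 (1.95 CPM) and highest in replicate 3 (9.08 CPM), beside 4.18 and 5.61 CPM in the remaining vehicle-treated bladders.

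Ctla4 was the exception in both control comparisons, at 0.22 after water (SE 0.465, edgeR quasi-likelihood adjusted p = 0.866) and at 0.16 after vehicle (SE 0.628). The water-treated bladders held 1.43, 4.96, 1.55, 7.02 and 1.74 CPM and the vehicle-treated bladders 1.16, 1.18, 9.30 and 1.28 CPM. In each group the mean rested on few bladders. Without water replicate 4 the value after water was -0.24, and without vehicle replicate 3 the value after vehicle was -1.27.

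Against their own controls, the D + Q-treated bladders differed from vehicle-treated bladders by -1.06 to 0.10 over the 10 genes and from water-treated bladders by -1.12 to 0.25, and 0 of the 10 passed in either comparison (edgeR's quasi-likelihood test, 0.0% of 17267 and of 17161 genes). At an unadjusted p under 0.05 there were 0 against vehicle, beside 4.18% of all genes, and 1 against water, beside 7.82%. Ctla4 had the lowest value in both, -1.06 against vehicle (SE 0.634, edgeR quasi-likelihood adjusted p = 0.994) and -1.12 against water (SE 0.475, adjusted p = 0.619). Against vehicle it became 0.38 when vehicle replicate 3 was left out. DESeq2 called 0 of the 10 in either comparison.

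Relative to Cd3e, D + Q-treated and untreated old bladders differed by -0.31 for Tigit (exact permutation adjusted p = 0.312) to 0.25 for Havcr2 (adjusted p = 0.172), with Ctla4 at -0.24, and 0 of the 10 passed. Tigit passed without untreated old replicate 4 (-0.52, exact permutation adjusted p = 0.0268). In the same test 82.3% of all genes were higher relative to Cd3e, with Cd3e itself at -0.65 on the CPM scale. After water, Cd274 alone of the 10 was higher relative to Cd3e, by 0.41 (exact permutation p = 0.00866, adjusted p = 0.0274), beside 78.3% of all genes. It did not pass with Cd3d, Cd3g and Cd247 in place of Cd3e (0.16, exact permutation adjusted p = 0.614), nor without water replicate 3, 4 or 5 (adjusted p = 0.0611, 0.0554 and 0.0539). After vehicle, and for D + Q against vehicle or water, 0 of the 10 passed, as did 0.0% of all genes by the exact permutation test.

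**Figure D3:**
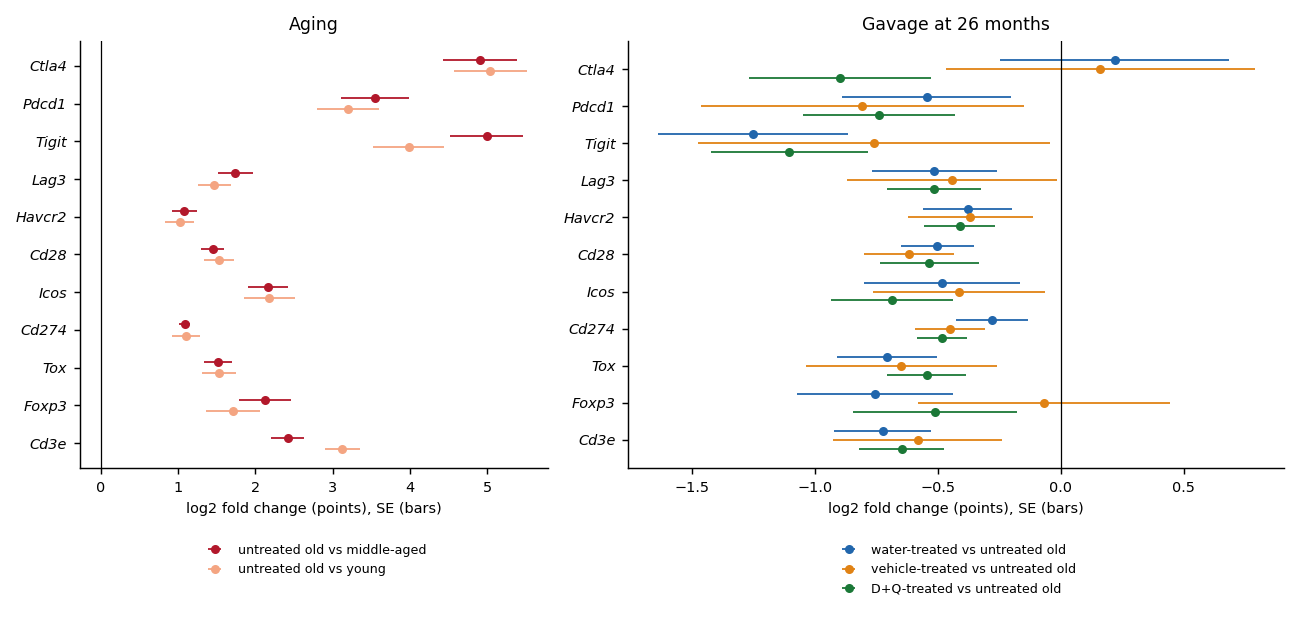
Fitted log2 fold changes of the 10 genes and Cd3e from edgeR's quasi-likelihood fits, as points with bars of 1 standard error, for untreated old against middle-aged and young bladders (left) and for the 3 gavage groups against untreated old bladders (right). The points for age run from 1.02 (Havcr2) to 5.04 (Ctla4), and those for D + Q from -1.11 (Tigit) to -0.41 (Havcr2), none of the latter past the adjusted threshold.

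Across the 21 bladders of 26 months the genes varied by very different amounts. Tigit ran over 47.5-fold, from 0.466 TPM in vehicle replicate 1 to 22.1 TPM in untreated old replicate 3, Pdcd1 over 20.7-fold (0.443 to 9.19 TPM) and Ctla4 over 12.8-fold (1.03 to 13.2 TPM). Cd274 ran over only 1.95-fold (7.01 to 13.7 TPM) and Havcr2 over 2.72-fold (2.71 to 7.37 TPM). Cd3e ran over 5.67-fold, from 1.70 to 9.63 TPM, and Lag3, Foxp3 and Tox over 6.98-fold, 6.94-fold and 5.67-fold. On this scale vehicle replicate 1 was the lowest bladder for Pdcd1, Lag3, Tigit, Tox, Foxp3 and Cd3e.

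How far each gene moved with Cd3e among bladders of equal age was tested with the log2 Cd3e level as a term beside the group, where a slope of 1 means a level proportional to Cd3e. Of the 10 genes, 7 had a positive slope that passed edgeR's quasi-likelihood test, beside 4.13% of 17892 genes, and the median slope was 0.87 against -0.0094 over all genes. Tigit had the steepest slope, 1.74 (SE 0.30, edgeR quasi-likelihood adjusted p = 0.00134), followed by Pdcd1 at 1.36 (SE 0.28, adjusted p = 0.00572, edgeR quasi-likelihood), Foxp3 at 1.14 (SE 0.248), Lag3 at 0.90 (SE 0.196), Tox at 0.84 (SE 0.161), Cd28 at 0.42 (SE 0.124, adjusted p = 0.0491) and Cd274 at 0.41 (SE 0.0869). Ctla4 had a slope of 1.11 with a wide error (SE 0.383, edgeR quasi-likelihood adjusted p = 0.0992), and neither Icos (0.48, adjusted p = 0.327) nor Havcr2 (0.43, adjusted p = 0.0682) passed. In the T-cell receptor and coreceptor list, 16 of the 17 genes tested passed with a positive slope (median 1.14). In the macrophage list 6 of 7 did (median 0.40), and in the urothelial list 0 of 6. With Cd3d, Cd3g and Cd247 in place of Cd3e, Cd28 no longer passed (0.36, edgeR quasi-likelihood adjusted p = 0.0653) and Havcr2 did (0.45, adjusted p = 0.0168), and Cd28 kept its call in only 5 of the 21 fits that each left out 1 bladder. Most calls were lost without either extreme of the vehicle group. Without vehicle replicate 3 only Tigit passed (slope 1.55, edgeR quasi-likelihood adjusted p = 0.0374), and without vehicle replicate 1 only Tigit (1.35), Cd28 (0.65) and Cd274 (0.55) did.

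**Figure D4:**
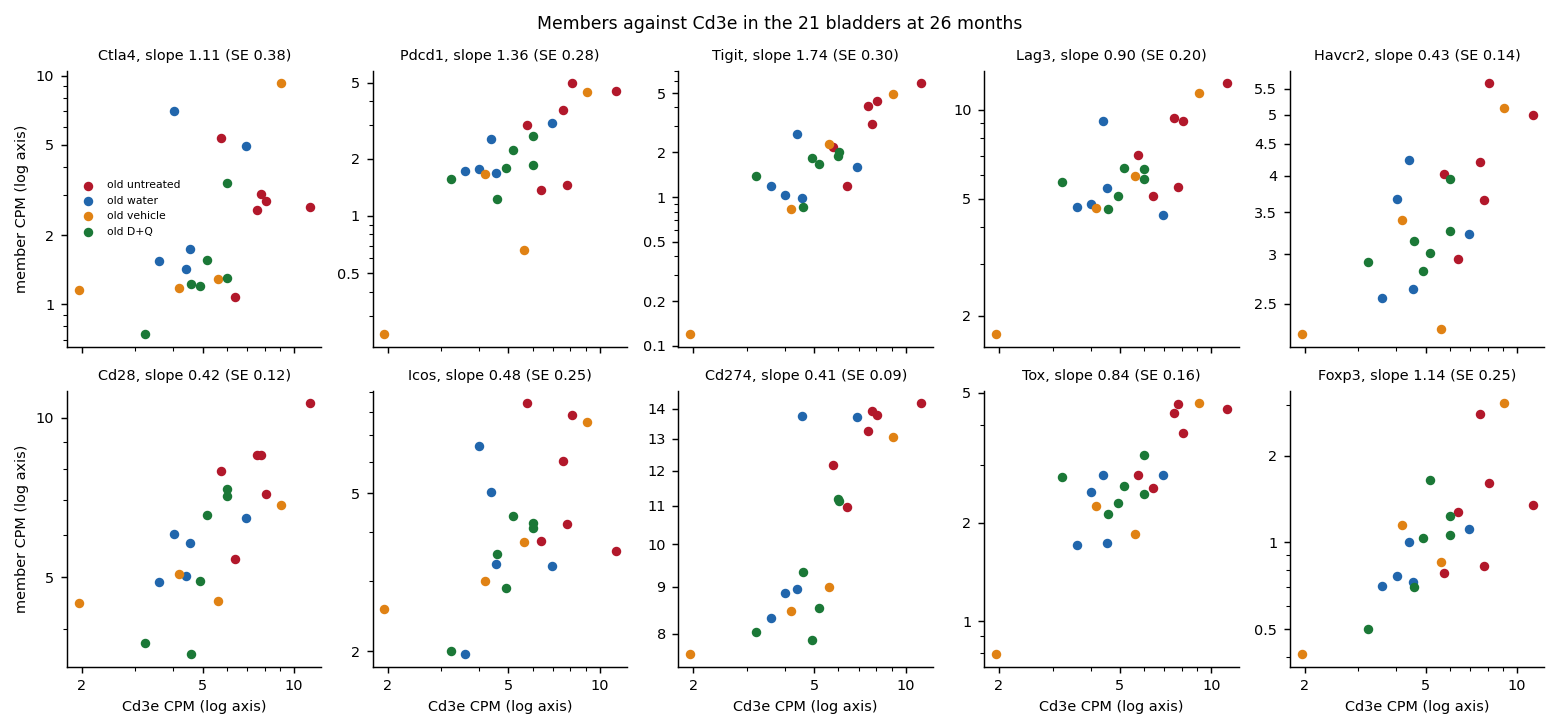
Each gene's CPM against the Cd3e CPM of the same bladder, both on log axes, for the 21 bladders of 26 months coloured by treatment, with the fitted slope and its standard error above each panel. The points of Tigit (slope 1.74) climb more steeply than those of Cd274 (slope 0.41), and the lowest point on the Cd3e axis, at 1.95 CPM, is vehicle replicate 1.

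The genes whose levels followed each member most closely over those 21 bladders are given as a description, by Spearman's rho of log2(CPM + 0.1), over libraries that share treatment groups and immune cell content. Tigit went with H2-Q7 (0.892), Lcp2 (0.882) and the T-cell receptor alpha constant gene Trac (0.881), and Pdcd1 with Il27ra (0.901), the receptor gene segment Trbv16 (0.900) and Gpr174 (0.899). Trbv16 had a median of 0.172 CPM, near the floor, so its rho rests on few reads. Lag3 had Tigit itself (0.878), H2-M3 (0.795) and Il21 (0.785) closest. Tox went with Gzmk (0.914), the gene of granzyme K, Il2rb (0.896) and Pif1 (0.894), and Foxp3 with Cd6 (0.818), Gpr171 (0.812) and Hrh2 (0.803).

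Cd274 had the interferon-inducible GTPase genes Gbp4 (0.921), Gbp6 (0.912) and Irgm2 (0.910) closest, and Cd28 had Trim12c (0.881), Lrrc8b (0.881) and Nlrc5 (0.879), the last a transactivator of MHC class I genes. Havcr2 went with Inpp4b (0.917), Haspin (0.904) and Casp8 (0.892). Icos went with Btla (0.878), Slamf6 (0.862) and Slain1 (0.812), and Ctla4 with Cacna1e (0.887), Cyfip2 (0.866) and Gm8369 (0.849). Cd3e was in none of these lists. Its rho was 0.829 with Cd274 and 0.786 with Tigit but 0.530 with Ctla4 and 0.527 with Icos. Ctla4 and Icos lay nearer to the follicular chemokine receptor gene Cxcr5 (0.799 and 0.736) and to the B-cell gene Cd79a (0.695 and 0.753). B-cell genes were themselves far from even in these bladders, since the 7 genes of the B-cell list summed to 32.8 to 339 CPM in the water-treated, 39.8 to 314 in the vehicle-treated, 25.3 to 116 in the D + Q-treated and 63.3 to 196 CPM in untreated old bladders, and their part in the Ctla4 and Icos levels was not tested.

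Ligand genes moved with age in part. Of 13 genes for ligands of these receptors, Cd274 among them, 12 could be tested for a change from middle to old age and 5 rose, none falling, with a median log2 fold change of 0.145 (edgeR's quasi-likelihood test; 13.0% of all genes rose). Pdcd1lg2, the gene of PD-L2, rose by 2.60 and Cd274 by 1.08, both ligands of PD-1. Cd80 (0.94) and Cd86 (0.79), the B7 ligands shared by CD28 and CTLA-4, rose too, as did Pvr (0.39), the ligand of TIGIT. The ICOS ligand gene Icosl was at 0.12 and the TIGIT ligand genes Nectin2 and Nectin3 at -0.08 and 0.01. The TIM-3 ligand genes Lgals9, Hmgb1 and Ceacam1 were at 0.17, -0.04 and -0.03 and Lgals3, a ligand of LAG-3, at 0.06, none of them past the threshold. Fgl1, another LAG-3 ligand gene, had too few counts to be tested.

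Other genes of the same receptor families were read from lists. Of 12 further genes listed as inhibitory receptors of lymphocytes, Cd72 and Laptm5 among them, 9 rose and none fell (median 1.30). Cd5, which dampens T-cell receptor signalling and is also counted in the T-cell list, was at 3.21. Btla, a receptor for HVEM, was at 2.63. Of 10 further costimulatory receptor genes, of which Cd2 is also counted in the T-cell list, 9 rose (median 1.48), led by Slamf6 (3.69) and Slamf1 (3.27). Tnfrsf18, the gene of GITR, was at 0.05 and did not pass. Of 17 transcription factor genes tied to exhausted and memory T cells 12 rose and 1 fell (median 0.68). Eomes rose by 2.96, Irf4 by 1.89 and Tcf7, the factor of stem-like T cells, by 0.68, whereas Id2 fell by 0.20. All of these are calls by edgeR's quasi-likelihood test in untreated old against middle-aged bladders, where 13.0% of genes rose and 11.0% fell. Against young bladders, where 12.6% of genes rose, 4 of the 12 inhibitory receptor genes (median 0.66) and 9 of the 10 costimulatory ones rose. Of the 17 transcription factor genes 9 rose and 1 fell in that comparison, where 2095 of all 16873 genes tested fell.

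The lists that mark T-cell subsets were uneven. Of 12 regulatory T-cell genes besides Foxp3, 10 were tested and 4 rose (median 0.372), among them Il10 (2.47) and Il2ra (0.94), the gene of the high-affinity IL-2 receptor chain. Of 11 follicular helper T-cell genes 8 rose (median 1.86), led by Il21 (4.71, from 3 counts in all middle-aged bladders together) and Cxcr5 (4.65). Against young bladders 4 of the 10 regulatory T-cell genes tested rose and 2 fell, and 7 of the 10 follicular helper genes tested rose. Over all 16873 genes tested in that comparison, 12.6% rose and 2095 genes fell. After D + Q, water or vehicle no gene of any of these lists passed against untreated old bladders by edgeR's quasi-likelihood test. After D + Q, all 11 of the further inhibitory receptor genes tested and all 10 costimulatory ones had negative values, with medians of -0.52 and -0.41. The ligand list had 8 of 12 negative (median -0.08), the follicular helper list 8 of 11 (median -0.11), the regulatory T-cell list 11 of 11 (median -0.15) and the transcription factor list 11 of 17 (median -0.15). After water the medians were -0.46 for the further inhibitory and -0.29 for the costimulatory receptor genes, and after vehicle they were -0.33 and -0.09, from comparisons that share the untreated old bladders. The T-cell receptor and coreceptor list had medians of -0.66 after D + Q, -0.48 after water and -0.59 after vehicle. Negative values were held by 18, 18 and 17 of its 18 genes.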

How the data were processed

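Whole bladders were measured by RNA sequencing of stranded total RNA libraries, 1 library per mouse, and grouped by age and gavage as the labels give them. The authors aligned reads with STAR 2.7.3 to mm10, counted them per gene with featureCounts of the Subread package and deposited the raw counts of 32285 genes, and beside them, as the other deposited unit, the length of its merged exons in bases. The table of normalized values that the authors also deposited was not used. The authors named edgeR for their comparisons and filtered genes on fold changes between young and middle-aged samples, but which edgeR test they ran, any filter on low counts and the strand setting of the counting are not given in the sources used here. A symbol was found for 32158 of the genes. No column was without a sample (0 unmapped).

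Counts were compared in 8 pairs of groups, each fit holding only its 2 groups, with edgeR 4.0.16 in R 4.3.3 (TMM, filterByExpr, quasi-likelihood test), with p-values adjusted after Benjamini and Hochberg over all genes and a threshold of 0.05. The slope on Cd3e used the 21 bladders of 26 months with group as a term. Levels relative to Cd3e went through exact permutation tests, two-sided, of log2 values with a pseudocount of 0.1 CPM, adjusted over all genes. CPM were computed with TMM factors and TPM from the exon lengths, with Python 3.11.15, scipy 1.17.1, numpy 2.4.6 and matplotlib 3.10.9. Promoter windows came from RefSeq (GRCm38.p6), whose table had entries for Ctla4, Pdcd1, Tigit, Havcr2, Foxp3 and Cd274 of the 10 genes.

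The genes named are the 10 members and Cd3e, for each member the 3 genes of highest Spearman's rho, from each list its counts and up to 2 largest rises and 2 largest falls between untreated old and middle-aged bladders, all ligand genes, and Cxcr5, Il2ra, Tnfrsf18, Tcf7 and Btla. Cd79a and further list members (Ncr1, Gzma, Klrb1c and Prf1) were named after their values were seen. Cd2, Cd72 and Laptm5 are named only as members of their lists. The members and lists were chosen with earlier results of these data known. The fits were tested on simulated counts. The alternatives were DESeq2 1.42.0, edgeR's likelihood ratio test, no filter, a stricter filter (10 counts or more in each bladder), all 6 groups in 1 fit, the replicate number as a block, each bladder left out, a pseudocount of 0.5 and Cd3d, Cd3g and Cd247 in place of Cd3e. Total counts were 15088372 to 52650259 per bladder. The SE of a fit was the size of its log2 fold change or slope over the square root of the test's F statistic. The 95% intervals took 1.96 SE on either side, a normal approximation that is too narrow for so few bladders. Intervals and floors cover counting error or the spread between these bladders only.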

Additional observations from a re-analysis of the deposited data

Results flagged for a closer look

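Over 66 sets of values (11 genes, Cd3e included, in the 6 groups), the highest or lowest bladder was tested for its distance from the others, and 5 stood apart at the 95% level of Dixon's test, where chance gives about 1 in 20. Ctla4 was at 9.30 CPM in vehicle replicate 3, beside 1.16 to 1.28 CPM in the other vehicle-treated bladders, and at 3.38 CPM in D + Q replicate 1, beside 0.741 to 1.55 CPM. Lag3 was at 4.14 CPM in young replicate 4, beside 2.45 to 2.86 CPM, and at 9.15 CPM in water replicate 1, beside 4.40 to 5.45 CPM. Cd3e was at 6.94 CPM in water replicate 2, beside 3.60 to 4.55 CPM. The cause was not tested for any of the 5.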

How the results depend on the processing

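The rise of all 10 genes from middle-aged to untreated old bladders, and their lower values after D + Q, kept their sign under every alternative run. With at least 10 counts in every bladder, the count of members higher in old than in young bladders went from 10 to 5. DESeq2 called 3 members in water-treated and 2 in D + Q-treated bladders against untreated old ones, where edgeR's quasi-likelihood test called 0. Leaving out 1 bladder gave 0 to 1 members after water (1 without untreated old replicate 4) and 1 to 8 members with a slope on Cd3e, against 7. Over all genes the same fits called 37 to 199 after water and 232 to 1214 with a slope in either direction. Relative to Cd3e, leaving out 1 bladder gave 0 to 2 members in middle-aged against young (2 without young replicate 6), 0 to 2 after water against 1, and 0 to 1 after D + Q, and with Cd3d, Cd3g and Cd247 the count after water was 0. Over all genes the same omissions gave 0 to 11117 of 16753 genes called in middle-aged against young. They gave 0 to 14821 of 17249 after water and 12067 to 14800 of 17036 after D + Q.

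Under some alternative the sign changed for all 10 members in D + Q against vehicle, for 4 in D + Q against water, for 5 of 7 in middle-aged against young, for 2 after vehicle and for 1 after water. With 1 bladder left out the value of Ctla4 ran from -0.24 to 0.47 after water, from -1.27 to 0.45 after vehicle and from -1.45 to 0.38 for D + Q against vehicle. Relative to Cd3e it ran from -0.43 to 0.040 after D + Q (0.040 without untreated old replicate 1). In old against young bladders relative to Cd3e, Ctla4 went from 0.98 to -0.11 and Tigit from 0.61 to -0.15 with a pseudocount of 0.5, and Pdcd1 from -0.13 to 0.47 with Cd3d, Cd3g and Cd247 and from -0.27 to 0.060 with 1 bladder left out.

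Bladders of the same replicate number correlated by -0.305 to 0.199 in their deviations from the group means, so the numbers share only a name. With the replicate number as a block, Ctla4 was at -0.0069 after water and -0.37 after vehicle, and 10 members were still called in old against middle-aged and in old against young bladders and 0 elsewhere.

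Over all genes, the count called in middle-aged against young bladders was 1811 and became 2858 with all 6 groups in the fit, 716 with the block and 728 to 2794 with 1 bladder left out. In old against middle-aged bladders 4110 became 2519 with all 6 groups. After water 173 became 0 with all 6 groups or with the block, 693 with DESeq2 and 99 without a filter. The counts of 0 after vehicle, after D + Q, for D + Q against vehicle and for D + Q against water became 123, 189, 13 and 66 with DESeq2 and 19, 22, 3 and 27 with the likelihood ratio test. The 1019 genes with a slope became 330 without vehicle replicate 1 and 232 without vehicle replicate 3. Relative to Cd3e, 13504 genes after water and 14016 after D + Q became 0 with Cd3d, Cd3g and Cd247. The cause was not tested. Levels at or under 3 counts (up to 0.205 CPM) rest on few reads, and so do the sizes of the rises of Ctla4 and Tigit.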

Other observations

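Markers of the other cells a whole bladder can hold moved unequally between middle-aged and untreated old bladders, by edgeR's quasi-likelihood test over all genes (13.0% rose and 11.0% fell). Of the 7 B-cell genes 6 rose and none fell, with a median log2 fold change of 4.43, led by Ms4a1 (5.00), the gene of CD20, and Pax5 (4.67). Of the 7 macrophage genes 6 rose with a median of 0.718, the complement genes C1qb (0.95) and C1qa (0.83) first. Of the 7 dendritic cell genes 4 rose, with Ccr7 at 1.25 and Xcr1 at 0.96. Against young bladders all 7 B-cell genes, 2 macrophage genes and 4 dendritic cell genes rose, and 1 dendritic cell gene fell. Over all 16873 genes tested there, 12.6% rose and 2095 genes fell.

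Of the 7 genes of NK and cytotoxic cells 3 rose, namely Gzmk (4.89), Nkg7 (2.56) and Prf1 (1.53), while the NK-cell genes Ncr1 and Klrb1c and the granzyme A gene Gzma had negative values that did not pass. Of the 6 urothelial genes 3 fell, with Upk2 at -0.23 and Upk3a at -0.19, and in smooth muscle and endothelium 1 gene each fell, Myh11 at -0.24 and Cdh5 at -0.19. Against young bladders 2 NK and cytotoxic genes rose and 2 fell. In that comparison 0 urothelial, 2 smooth muscle and 4 endothelial genes fell, beside 2095 of all 16873 genes tested.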
